A study of Mus musculus with 20 samples.

Results

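In the cells sorted as macrophages from 4T1.2 tumors, a rare population transcribed both Ccr7 and Fscn1. Its members were chosen by their measured values, as cells with a corrected count of at least 2 for Ccr7 and at least 2 for Fscn1. There were 95 such cells among 10885 tumor cells, which is 0.873% (exact 95% binomial interval 0.707 to 1.07%, counting error only). They are called members here, and a corrected count is the count of a gene in a cell after the authors adjusted it for sequencing depth, recovered here from its deposited natural log. All 95 members carried Tbc1d4, 93 carried Ccl5, and 77 carried the dendritic cell receptor gene Flt3, while 19 carried the macrophage gene Lyz2.

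The tumor libraries held cells purified by flow cytometry as F4/80+CD11b+ from 4 young female BALB/c mice bearing 4T1.2 breast cancer, a mouse model of triple-negative disease. The expression table numbers its 4 tumor libraries 2 to 5, and these numbers are used here. The same series holds cultured B-MF and Mo-MF, with 2 libraries of each. These macrophages were derived from bone marrow B-cell precursors and from monocytes, both cultured in medium conditioned by 4T1.2 cancer cells. All tumor cells came from tumor-bearing mice, and tumor-free tissue was not analysed here.

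Ccr7 encodes the receptor that guides dendritic cells toward the chemokines of lymph vessels and lymph nodes, and Fscn1 encodes fascin, which bundles actin in the long processes of mature dendritic cells. A conventional dendritic cell that takes up antigen and matures switches off sampling and uptake, raises costimulatory molecules and migrates to present its antigen to T cells. Such Ccr7+ cells have been described in many tumors and lymph nodes, often with genes that activate T cells beside genes that restrain them. MHC class II genes behave in a particular way during this change, because their transcription is known to shut down once the cell has loaded its surface with them.

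In the 4 libraries, the member share was alike. It was 0.786% in library 2 (25 of 3180 cells), 0.949% in library 3 (22 of 2318), 0.922% in library 4 (22 of 2387) and 0.867% in library 5 (26 of 3000). The exact 95% intervals of these shares overlapped, and the widest ran from 0.596 to 1.43% in library 3. The edge of the rule held few cells, since 2 members had Ccr7 or Fscn1 at exactly 2, and 4 cells with enough Ccr7 stopped at 1 count of Fscn1. Those 4 cells averaged 21 counts of Ccr7, 15.5 of Tbc1d4 and 29.5 of Ccl5, against 31.8, 28.0 and 73.8 in the 93 members with both genes at 3 or more. A further 256 cells had Ccr7 at 2 or more with no Fscn1. Of these, 144 carried the B-cell gene Cd79a, 34 carried the T-cell gene Cd3e and 14 fell in the dendritic gate described with the comparisons.

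Over the libraries, the members had a median of 8618 corrected counts and 2452 detected genes per cell, against 7951 and 1793 in all other tumor cells. Corrected counts are brought to nearly the same total in every cell, so the sequencing depth itself is unknown. Between libraries, 13 cell barcodes occurred more than once, and none of them belonged to a member. Of the 95 members, 17 carried at least 2 neutrophil genes at 2 or more counts (1, 7, 5 and 4 cells in libraries 2 to 5), 1 of them also carried T or NK cell genes, and none carried B-cell genes or a C1q sum of 10. The summed level of the 10 neutrophil markers was 1.44, 44.0, 55.1 and 28.3 corrected counts per member in libraries 2 to 5, against 452 to 803 in the other cells, and 9 of the 10 markers were detected in members. Results without those 17 cells are given with the comparisons.

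The members were checked against the markers of the dendritic label. Both genes of the rule are a description, as are Ccl22, Il12b, Il4i1 and Tbc1d4, which were given as markers of this population. Ccr7 averaged 34.4, 29.4, 28.4 and 34.8 corrected counts per member in libraries 2 to 5, against 0.144 to 0.336 in all other tumor cells. Fscn1 averaged 20.5, 24.3, 13.4 and 19.8. Tbc1d4, which encodes a Rab GTPase-activating protein, averaged 29.6, 29.6, 24.1 and 28.3, against 0.0557 to 0.0929 in the other cells, so that no library of either group came near the other group.

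Ccl22, a chemokine that attracts regulatory T cells through CCR4, averaged 14.2, 11.5, 10.3 and 9.69 counts per member, and 82 of 95 members carried it. Il4i1, a secreted amino acid oxidase that dampens T cells, averaged 4.28, 4.95, 2.82 and 3.08. Il12b, the p40 subunit of interleukin-12 and interleukin-23, varied widely, with 14.2, 2.73, 7.09 and 2.62. It was found in 32 of 95 members, and the 3 highest cells held 48.5% of its counts. Cells that carried at least 3 of these 4 markers besides the genes of the rule numbered 93, and 75 of them were members.

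In GRCm38.p6 coordinates, Ccl22 lies on chromosome 8 (94745684 to 94751388), Ccr7 on chromosome 11 (99144199 to 99155077), Fscn1 on chromosome 5 (142960355 to 142973189), Il12b on chromosome 11 (44400063 to 44414677), Il4i1 on chromosome 7 (44836288 to 44840809) and Tbc1d4 on chromosome 14 (101442360 to 101609281).

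Dendritic cell genes outside the rule were present and macrophage genes were low. Flt3, the growth factor receptor of dendritic cells, averaged 2.16, 1.45, 2.32 and 1.88 counts in members against 0.0133 to 0.0207 in all other tumor cells. Zbtb46, a transcription factor of conventional dendritic cells, averaged 0.60, 0.545, 0.50 and 0.923 against 0.0026 to 0.0060. Flt3 was found in 81.1% of members (95% interval 71.7 to 88.4%) and in 1.25% of all other tumor cells. Its share of 0.134% in the C1q-gated cells described with the comparisons is partly fixed, because cells of a gate that needs a Flt3 count were left out of them. The sort genes themselves were low, with Adgre1, which encodes F4/80, in 5.26% of members and Itgam, which encodes CD11b, in 10.5%, against 17.0% and 79.6% of the other cells. The 13 macrophage markers summed to 0.615 to 3.82 counts per member against 44.0 to 74.9 in the other cells, with Csf1r at 0.12, 0, 0.0455 and 0. The label of a dendritic cell therefore fitted the markers, whereas the sample label of a macrophage did not.

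Genes that mark dendritic cell subsets were found in few members. The cDC1 genes Xcr1 or Clec9a were found in 2 of 95 members, the cDC2 gene Cd209a in 1, and the plasmacytoid gene Siglech in 0 of 95, which, taken as 3 cells of the total, allows a share with a count of up to 3.16%. The cDC2 genes Mgl2 or Clec10a were found in 6 members (6.32%), beside 5.13% of all other tumor cells. In the dendritic-gated cells, the first pair was present in 30 of 54 cells, and that gate used these genes. Members could not be assigned to a subset from these genes.

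**Figure D1:**
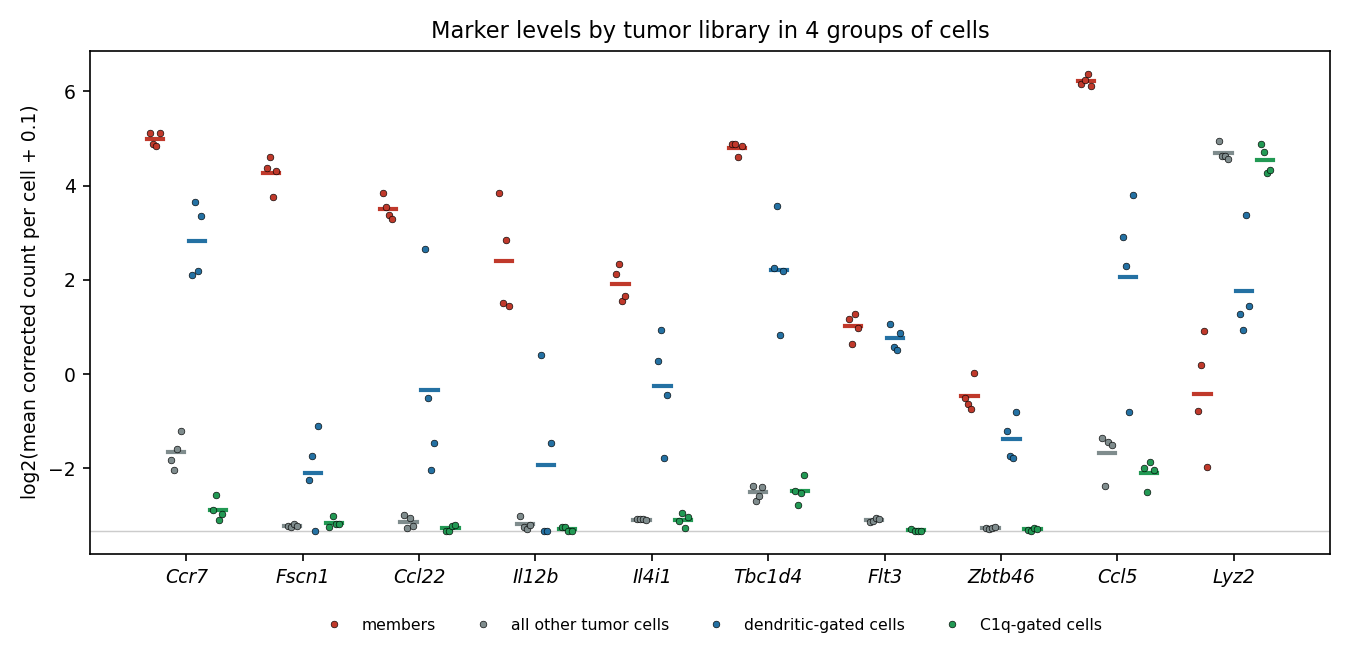
Levels of the 6 markers, of Flt3, Zbtb46, Ccl5 and Lyz2, by library. Each point is 1 tumor library, the short line is the mean of 4 libraries, colours are the members and the 3 groups of cells they were compared with, and the vertical axis is log2(mean corrected count per cell + 0.1). The grey line marks a mean of 0. In Lyz2 the members lie lowest, and in Tbc1d4 their 4 points lie above every point of the other groups.

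The members were compared with 3 groups of cells from the same 4 libraries: with all other tumor cells, with other dendritic-gated cells (a count of Flt3 and of at least 1 of Cd209a, Xcr1, Clec9a or Zbtb46), and with C1q-gated cells (a sum of at least 10 counts of C1qa, C1qb and C1qc), a complement gene set of macrophages. The last group left out cells of the dendritic gate. In each library the counts of a group were averaged, log2(mean + 0.1) of both groups entered a limma fit with library as a block, and p-values were adjusted over all genes tested. Differences are members minus the other group on this log2 scale, where the added 0.1 shrinks the differences of low genes. Libraries were the replicates, n = 4 per group, and since the labels do not tie each library to one of the 4 mice, the p-values measure only the spread between these libraries. The 3 comparisons share the members. The 6 markers and, in the gated comparisons, the genes of the gates were left out of the counts.

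Against all other tumor cells, the members had higher maturation and costimulation genes and were low in the genes of neutrophils, monocytes and macrophages. Of 6425 genes tested, 3410 passed at an adjusted p of 0.05 (53.1%), of which 1984 were higher in members (30.9%) and 1426 lower (22.2%). With so many genes called, a call alone says little, and the sizes matter more. The median difference over all genes was 0.17. Without the 17 members that carried another cell type's genes, 1918 genes were higher and 1415 lower.

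Ccl5, a chemokine that attracts T cells, averaged 70.7, 75.9, 82.9 and 69.0 corrected counts per member in libraries 2 to 5, against 0.0932 to 0.292 in all other tumor cells. Flt3 and Zbtb46, the dendritic cell genes described above, differed by 4.12 ± 0.19 and 2.80 ± 0.19 (SE, limma adjusted p = 1.08e-06 and 6.58e-06). The difference of Ccl5, 7.88 ± 0.22 (SE, log2), was the largest of the genes named by size (limma adjusted p = 1.06e-07). The libraries did not overlap. Serpinb6b and Serpinb9, which encode inhibitors of cytotoxic proteases, followed with 6.50 and 6.22, and averaged 9.95 to 22.4 and 7.36 to 19.6 counts in the members.

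Next came Cacnb3, a calcium channel subunit, with 4.28, 4.91, 4.64 and 4.73 counts in the members, and a mean of 0.00784 elsewhere (5.46, limma adjusted p = 1.56e-07). Its level varied less between libraries than those of Ccr7 and Fscn1. Cd200, a ligand that restrains myeloid cells (4.96), Tmem123, a surface mucin (4.90), Stat4, a transducer of interleukin-12 signals (4.82), Socs2, an inhibitor of cytokine receptors (4.78), and Gnb4, a G protein subunit (4.77), completed the upper part. H2-M2, a nonclassical MHC class I gene, was uneven, with 8.59 counts in library 3 and 1.23 to 2.35 in the others (4.56, or 3.95 without library 3). It was found in 41 of 95 members.

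A list of maturation and migration genes, chosen with earlier results of these data known, had 15 of 16 tested genes higher and none lower, with a median of 3.07 beside 0.17 over all genes. Samsn1 averaged 18.3 to 21.4 counts in members against 4.24 to 5.07 (2.04), Marcks, an actin regulator, 13.3 to 19.3 against 4.01 to 4.64 (1.89), and Cd63, a tetraspanin of endosomes, 7.77 to 12.2 against 1.42 to 1.99 (2.57). Other genes of the list were Adcy6, an adenylate cyclase (3.28), Epsti1 (3.85), Myo1g, a myosin (3.68), Cytip, which regulates adhesion (2.02), Anxa3 (1.87) and Marcksl1 (1.31). Adcy6 was found in 59 of 95 members and in 15 of 10790 other cells. At a mean of 0.903 against 0.0015, it passed the filter on low values only through the members. So did Cd70 (0.502 against 0.00051) and Ccl17 (1.62 against 0.0040), both given below. The direction of such genes was nearly fixed beforehand, so the counts of higher genes are partly set by the filter. The exception, Apol7c, was found in 4 members.

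Of 13 costimulation genes tested, 12 were higher and none lower (median 1.80). Cd40, the receptor through which helper T cells license dendritic cells, averaged 2.92, 3.45, 2.23 and 2.23 counts in members against 0.107 to 0.190 in the other cells (3.47 ± 0.21, limma adjusted p = 3.83e-06). Cd83, a stabiliser of surface MHC class II, averaged 5.64 to 7.92 against 0.295 to 0.569 (3.64). The ligands of CD28, Cd80 and Cd86, were higher by 1.80 and 1.84. Tnfrsf9, which encodes 4-1BB, was higher by 3.4, Tnfsf4, the OX40 ligand, by 3.17, and Cd70, the ligand of CD27, by 2.57. Cd48 missed the threshold at 0.45.

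Genes of immune regulation were split, with 5 of 13 higher and 7 lower (median −1.63). Cd274, which encodes PD-L1, averaged 4.16, 3, 3.86 and 4.42 counts in members against 2.05 to 2.64 (0.69, limma adjusted p = 0.00874). Pdcd1lg2, which encodes PD-L2, averaged 1.60, 0.636, 0.591 and 0.731 against 0.112 to 0.157 (1.97). Fas was higher by 0.95, beside Cd200 and Socs2. Arg2 and Tgfb1 were lower, with differences of −1.63 and −1.86. Arg2 depended on the comparison, since it was also lower than in C1q-gated cells (−1.11) but higher than in dendritic-gated cells (2.34, limma adjusted p = 0.027). The last call was lost without library 4. Cd274 was found in 55.6% of the other tumor cells and in 92.6% of the members.

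Chemokines ran mostly the other way, with 3 of 16 tested genes higher and 11 lower (median −2.46). The 3 were Ccl5, Ccl17, another ligand of CCR4, at 1.80, 2.82, 0.909 and 0.962 counts (3.91), and Cxcl16, the ligand of CXCR6 on T cells, at 8, 7.27, 8.64 and 8.31 against 0.465 to 1.47 (3.19). Most inflammatory chemokines were lower, while Cxcl1 (−0.61) and Cxcl9 (−0.53) did not pass. Ccl2, which attracts monocytes, had a difference of −3.30, Ccl3 had a difference of −4.44, Ccl4 of −4.73 and Cxcl2 of −3.99. Cxcl2 averaged 3.32, 18.8, 20.3 and 3.08 counts in members, and the 2 high libraries, 3 and 4, were also the highest in the neutrophil sum of the members. The part of neutrophil RNA in these levels was not tested.

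Cytokine and cytokine receptor genes gave 4 higher and 8 lower of 17 (median −0.70). The 4 were receptors: Il2ra, the alpha chain of the interleukin-2 receptor (3.73), Il21r (3.38), Il15ra, which presents interleukin-15 (3), and Il7r (2.05). Il2ra averaged 1.36, 1.41, 1.91 and 2.08 counts in members against 0.0249 to 0.0448. Il15 itself differed by 0.43, which did not pass. Il1b was lower, at 7.60, 10.6, 13.1 and 3.85 counts against 52.8 to 62.5 (−2.85).

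In the NF-kB pathway, the inflammatory signalling route that drives dendritic cell maturation, 13 of 22 genes were higher and 4 lower (median 0.83). Relb, the partner of the noncanonical branch, averaged 3.52, 4.09, 4.27 and 4.15 counts in members against 0.314 to 0.378 (3.17, limma adjusted p = 2.55e-06). The differences were 4.14 for Birc2, 2.85 for Traf1, 2.75 for Rel, 2.54 for Map3k14, the noncanonical kinase, 1.80 for Nfkb2 and 1.35 for Nfkb1. Tnfaip2 was lower (−2.23), as was Nfkbia, the classical inhibitor (−0.61), which did not pass without library 2 or without library 5.

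Among dendritic cell transcription factors, 11 of 16 were higher and 2 lower (median 2.24). Etv3 led with 4.10, at 4.48, 7, 4.91 and 6.54 counts in members against 0.183 to 0.282. Nr4a3, an orphan nuclear receptor linked to dendritic cell migration, was higher by 3.28, Irf8 by 3.24, Batf3 by 2.97, Zfp366 by 2.33, Id2 by 2.28 and Irf4 by 2.19. Irf8 was high in library 2 at 18.5 counts and lay between 9.32 and 10.7 in the others. Zfp366 was found in 39 members. The genes lower in members were Zeb2 (−2.43, or −1.83 without library 2) and Spi1, which encodes PU.1 (−0.87). Among survival genes, 6 of 12 were higher and 3 lower (median 0.43), with Bcl2a1d (4.02) and Bcl2a1b (3.66) up and Mcl1 down (−1.24), and the Bcl2a1 copies share near-identical sequence, so reads may be split among them.

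The antigen presentation genes are given by class, and the difference between the classes was not tested. Of 22 MHC class I genes, 20 were higher and 1 lower (median 1.15). H2-K1 averaged 25.6, 22.5, 23.3 and 24.3 counts in members against 5.89 to 7.62 (1.77), B2m, the common light chain, 28.8 to 34.0 against 12.2 to 15.4 (1.20), and Psme2, a proteasome activator, 10.4 to 13 against 1.37 to 2.31 (2.50). The immunoproteasome subunit Psmb9 (1.23), the peptide transporter Tap1 (0.51) and Nlrc5, the regulator of class I transcription (1.07), were higher as well, though Tap1 did not pass with any library left out. The gene lower in members was Calr, a chaperone of class I assembly (−0.79). H2 genes are close relatives of each other and may share reads. Of 12 MHC class II genes, 4 were higher and 3 lower (median −0.21). Over all genes tested, 30.9% were higher and 22.2% lower, so these class II counts say little about the members. H2-Aa was higher (1.03), while H2-DMa and H2-DMb1, which load peptides on class II, were lower (−1.08 and −1.85). H2-Ab1 was at 9.08, 2.23, 11.2 and 7.5 counts in members and at 4.69 to 8.57 in the others, a difference of −0.10 that did not pass and that turned positive, to 0.21, without library 3.

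The uptake and sensing genes were lower in the members than in all other tumor cells. Of 12 uptake receptors, 10 were lower and 2 higher (median −3.27), and of 14 pattern receptors, 11 were lower and 1 higher (median −2.28). Fcgr3, an Fc receptor, averaged 0.04, 0.364, 0.318 and 0.115 counts in members against 4.87 to 5.65 (−4.28), and Cd14 0.04 to 2.82 against 18.8 to 22.5 (−4.69). Clec4e (−4.12), Nlrp3 (−3.59) and Tlr2 (−2.70), which sense microbial products and damage, were also lower. Without library 2, Cd14, Clec4e and Nlrp3 differed by −3.90, −3.41 and −2.96, and without library 4 Cd14 and Clec4e differed by −5.31 and −4.82. Ly75, which encodes the endocytic receptor DEC-205, went the other way at 3.27 to 5.40 counts against 0.0650 to 0.0968 (4.50). Timd4, a phosphatidylserine receptor, was the other higher uptake gene (1.73, or 2.45 without library 3, where no member carried it), and Ly96, the partner of TLR4, the higher pattern receptor (0.64). Timd4 did not pass without library 2 or without library 5, and Ly96 did not pass without library 3, 4 or 5. Against dendritic-gated cells, few genes of both lists passed. Of 11 uptake receptors, 1 was higher and 1 lower (median −1.16), and of 12 pattern receptors, 1 was higher and 1 lower (median −0.09).

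The genes lower by the largest amounts were S100a9 (−5.29), G0s2 (−5.21), Stfa2 (−5.14), Lyz2 (−5.11), BC100530 (−5.08), S100a8 (−5.01), Stfa2l1 (−4.88), Cebpb (−4.79), Apoe (−4.75) and Ccl4 (−4.73). Their order is not firm. Without library 2, where members averaged 0.68 counts of S100a9 and 9.96 to 28.8 in the other libraries, the differences of S100a9, G0s2, S100a8 and Cebpb were −4.31, −4.43, −3.98 and −3.81. Without library 4, those of S100a9 and G0s2 were −5.89 and −5.84. S100a8 and S100a9 encode calprotectin of neutrophils and monocytes, and Stfa2, Stfa2l1 and BC100530 belong to one stefin family whose copies may share reads. Lyz2, the lysozyme of myeloid cells, averaged 0.48, 1.05, 1.77 and 0.154 counts in members against 23.6 to 30.9. All 10 neutrophil markers (median −3.91), all 12 macrophage markers tested (−3.56) and all 8 monocyte markers (−2.86) were lower. The rest group is itself made mostly of such cells, so these numbers describe the mixture as well as the members. Markers with a member mean under 0.1, such as Adgre1 (0.0795 against 0.246), passed the filter on low values only through the rest group.

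The remaining lists were mixed. Of 8 cDC1 genes, 2 were higher and 5 lower, of 9 cDC2 genes 4 were higher and 5 lower, and of 4 plasmacytoid genes 3 were higher and 1 lower. Of 19 interferon response genes, 4 were higher and 6 lower (median −0.28). Isg15, at 3.82 to 13.6 counts in members, did not pass (0.14). Of 16 immediate-early genes, 12 were lower and 1, Nr4a2, higher (median −1.04). All 5 genes of a B-MF list were lower, among them Egr1 (−2.64, or −2.05 without library 5), Slc40a1 (−2.35) and Mrc1 (−2.15). Against dendritic-gated cells, none of the 4 tested genes of that list passed. Against all other tumor cells, 3 of 6 proliferation genes tested were lower and 1, Tubb5, higher (median −0.55), and Mki67 was found in 5 members. Of 7 chemokine receptors, 5 were lower, with Ccr1 (−4.01) and Ccr2 (−3.46) among them, and 1, Cxcr5, was higher (1.56). Both B-cell markers that could be tested were lower, Cd79a at 0 counts in members against 0.349 and Ighm at 0.0988 against 0.377. They passed the filter on low values only through the other cells, so their direction was nearly fixed beforehand. T and NK markers were too low to test.

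**Figure D2:**
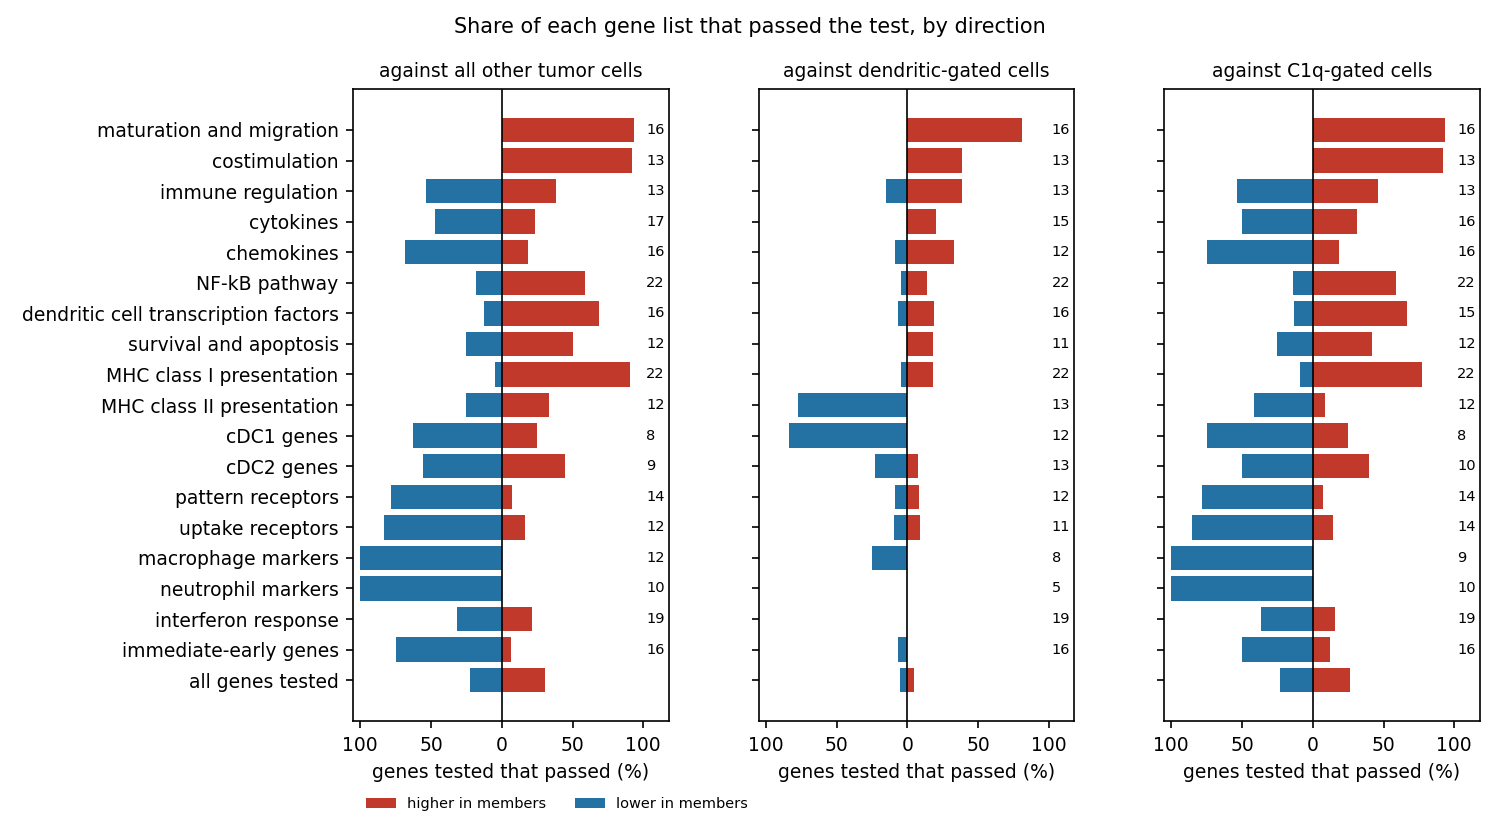
Share of the tested genes of each list that passed the limma test, in percent, with genes higher in members to the right in red and genes lower in members to the left in blue, for the 3 comparisons. Numbers at the right edge give the genes tested, and the bottom row is all genes tested. The lists were chosen with earlier results of these data known. Maturation and migration genes reach 15, 13 and 15 of 16 on the right, and MHC class II genes reach 10 of 13 on the left against dendritic-gated cells.

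Against the other dendritic-gated cells, the members had lower MHC class II genes and higher genes of the maturation and migration list. That list was chosen with earlier results of these data known, and Cd83, Cd86 and Cd80 did not pass. The members had lower cDC1 genes too. That difference is tied to the choice of the dendritic-gated group, since the gate took in cells by Xcr1 and Clec9a. This comparison asks where the members differ from cells of the same broad lineage. The gate held 54 cells, with 9, 5, 21 and 19 in libraries 2 to 5, and 37.0% of them had a Ccr7 count, so the gate did not keep out cells with Ccr7. Of 6738 genes, 656 passed (9.74%), with 309 higher (4.59%) and 347 lower (5.15%), around a median of −0.01. The calls rested on library 4 more than on the others, since without it 24 genes were higher and 46 lower. Without library 5, the counts were 51 and 67, and without library 2 they were 146 and 179. The plasmacytoid genes summed to 22.3 and 17.1 counts per dendritic-gated cell in libraries 4 and 5 and to 3.78 and 5.20 in libraries 2 and 3, and Siglech was found in 5 of the 54 cells. The 10 B-cell markers summed to 0.444, 1.80, 1.76 and 4.05 counts per dendritic-gated cell, against 0 to 0.318 in members, with Cd79a in 2 of the 54 cells and at 0 in the members. Of the 2 B-cell markers tested, Ighm, chosen here after its values were seen, was lower in members (−2.75) and was found in 24 of the 54 cells. B cells are known to express MHC class II genes. The part of these cells in the calls, those of class II among them, was not tested. Without the 17 members that carried another cell type's genes they were 317 and 364. Among the genes described next, Ccl5, Cacnb3, H2-M2, Nudt17, Glipr2, H2-Ab1, H2-DMa, H2-DMb1, Naaa, Plbd1, Ckb, Gpr171, Rab7b, Mpeg1, Clec10a, Wdfy4 and Ppt1 passed with each library left out in turn. Most of the others, Cd40, Cd274, H2-Aa, Cd74 and Ciita among them, did not pass without library 4 or without library 5. With 0.05 added to the mean in place of 0.1, Ccl17, Cxcl1, Ankrd33b, Icam1, Relb, Calr, Chuk, Havcr2, March1, Cadm1, Cd24a and Cd1d1 did not pass.

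The maturation and migration list had 13 of 16 genes higher and none lower (median 2.28), of which 2 remained called without library 4 and 5 without library 5. Cacnb3 averaged 0.778, 0.60, 0.0476 and 0.842 counts in the dendritic-gated cells, below every library of the members (3.13, limma adjusted p = 0.0104). Serpinb6b, Serpinb9 and Tmem123 were higher by 2.26, 2.33 and 2.45. Nudt17, a hydrolase, averaged 1.48, 1.86, 0.409 and 1.42 counts in members and was found in 2 of the 54 dendritic-gated cells (3.22).

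Ccl5 averaged 7.44, 4.80, 0.476 and 13.7 counts in the dendritic-gated cells, from 10 of 54 cells, so both groups were far apart in every library (4.17 ± 0.69, limma adjusted p = 0.011). Of 12 chemokines, 4 were higher and 1 lower (median 1.05). The other higher ones were Ccl17 (2.79, or 2.09 and not passing without library 3 and 3.61 without library 4), Cxcl16 (1.63) and Cxcl1 (3.25), the last in 22 members and 1 dendritic-gated cell, and the lower one was Ccl4 (−2.67). Without library 4, 2 of the 4 higher calls were left, and 1 without library 5.

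The other genes with the largest positive differences were H2-M2 (4.39), Socs2 (3.65), Il2ra (3.2), Ankrd33b (3.12), Clu, a secreted chaperone (3.06), and Glipr2 (3.03). Clu was found in 28 members and in 1 dendritic-gated cell. Several of these sizes moved with 1 library. Without library 2, Socs2, Il2ra, Ankrd33b and Cxcl1 differed by 4.37, 3.88, 3.88 and 4.22. Without library 3, H2-M2, Ankrd33b and Clu differed by 3.71, 2.49 and 2.44. Without library 4, Ccl5, Cxcl1 and Cacnb3 differed by 3.17, 2.66 and 2.51, and Ccl5 by 4.79 without library 5. In the smaller lists, 5 of 13 costimulation genes (median 1.30), 5 of 13 immune regulation genes (0.67), 3 of 15 cytokine genes (0.90), 3 of 22 NF-kB genes (0.92) and 4 of 22 MHC class I genes (0.61) were higher. Without library 4 none of these 20 calls were left. The same lists held 4 lower genes, Tgfb1 (−1.78) and Havcr2 (−2.10, or −2.80 without library 3) of immune regulation, Chuk (−1.38), a kinase of the NF-kB pathway, and Calr (−1.17), a chaperone of class I, and none of these were called without library 4.

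Some of the maturation genes did not pass in this comparison. Cd83 averaged 6.44, 5.40, 2.10 and 4.79 counts in the dendritic-gated cells, beside 5.64 to 7.92 in the members (0.68, limma adjusted p = 0.299). Cd86 differed by 0.46, Cd80 by 0.75 and Stat4 by 1.56. Cd40 did pass (1.89), as did Cd274 (1.88), Icam1 (1.40), Cd70 (2.16), Relb (1.65), Birc2 (1.87) and Il15ra (2.66). Irf8 and Batf3 differed by 0.69 and 0.17 without passing, while Irf4 (2.08) and Id2 (1.55) passed.

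MHC class II genes were lower in the members. Of 13 tested, 10 were lower and none higher (median −2.24), with 3 of the 10 still called without library 4 and 5 without library 5. H2-Ab1 averaged 64.8, 85.2, 55.5 and 53.9 counts in dendritic-gated cells against 9.08, 2.23, 11.2 and 7.5 in members (−3.29 ± 0.48, limma adjusted p = 0.0102, or −2.65 without library 3). H2-Aa was at 66.6 to 99.6 against 8.64 to 21.9 (−2.24), and Cd74, the invariant chain, at 125 to 186 against 19.5 to 50.7 (−2.18). No library of one group reached the other for any of the 3 genes.

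Most loading and control genes were lower too. H2-DMb1 averaged 4.78, 4, 4.90 and 4.63 counts in dendritic-gated cells and 0.04, 0.136, 0.182 and 0.0385 in members (−4.62, limma adjusted p = 0.000646). Ciita, the master regulator of class II transcription, averaged 0.81 to 1.60 and 0 to 0.24 (−2.55), and H2-DMa differed by −2.83. Ciita was found in 8 of 95 members and in 29 of 54 dendritic-gated cells. March1, the ligase that turns over surface class II, was found in 1 member (−1.82, or −2.43 without library 3). Ctss, which trims the invariant chain, differed by −0.41 and did not pass.

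The upstream sequence of class II genes is shown because most class II genes were lower in the members than in dendritic-gated cells. Their promoters are known to share boxes near the start site, of which the Y box holds an inverted CCAAT. The 8-base word CTGATTGG (CCAATCAG on the other strand), chosen after its matches were seen, occurred within 250 bases upstream of the start in 3 of the 11 class II list genes with a RefSeq promoter, and in 3.83% of all 32851 mouse promoters. These 11 did not include H2-Ab1, Cd74 or Ciita, and besides H2 genes they held Ctss, Ifi30, Lgmn and March1. The matches lie 51, 62 and 46 bases before the start sites of H2-Aa, H2-Eb1 and H2-Oa. Capitals mark the word, and the sequences are from RefSeq, GRCm38.p6, on the gene's strand.
H2-Aa (chr17:34287824-34288073, minus strand): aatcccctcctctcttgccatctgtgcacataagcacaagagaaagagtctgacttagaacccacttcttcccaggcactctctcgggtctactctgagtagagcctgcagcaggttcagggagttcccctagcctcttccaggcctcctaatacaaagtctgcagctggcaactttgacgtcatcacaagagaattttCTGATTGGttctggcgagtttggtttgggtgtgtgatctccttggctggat
H2-Eb1 (chr17:34305617-34305866, plus strand): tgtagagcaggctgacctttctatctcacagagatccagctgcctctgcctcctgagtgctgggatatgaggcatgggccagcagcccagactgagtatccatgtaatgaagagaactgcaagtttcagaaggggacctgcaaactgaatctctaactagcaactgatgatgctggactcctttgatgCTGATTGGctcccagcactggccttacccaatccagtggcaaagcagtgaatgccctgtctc
H2-Oa (chr17:34092129-34092378, plus strand): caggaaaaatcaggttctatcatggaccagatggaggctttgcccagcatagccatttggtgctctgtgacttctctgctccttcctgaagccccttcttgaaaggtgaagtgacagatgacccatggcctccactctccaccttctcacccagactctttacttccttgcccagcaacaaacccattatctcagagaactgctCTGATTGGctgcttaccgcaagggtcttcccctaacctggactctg
All 3 genes were lower in members than in dendritic-gated cells, with differences of −2.24, −2.59 and −1.55. So were 10 of all 13 class II genes tested. H2-DMa, H2-DMb1 and H2-DMb2, which lack the word, differed by −2.83, −4.62 and −2.36, while Ctss, which also lacks it, did not pass (−0.41). The 3 genes with the word were higher than in all other tumor cells (1.03, 0.79 and 1.16), and H2-Oa was higher than in C1q-gated cells (1.57). A match describes the letters and does not show a bound factor.

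**Figure D3:**
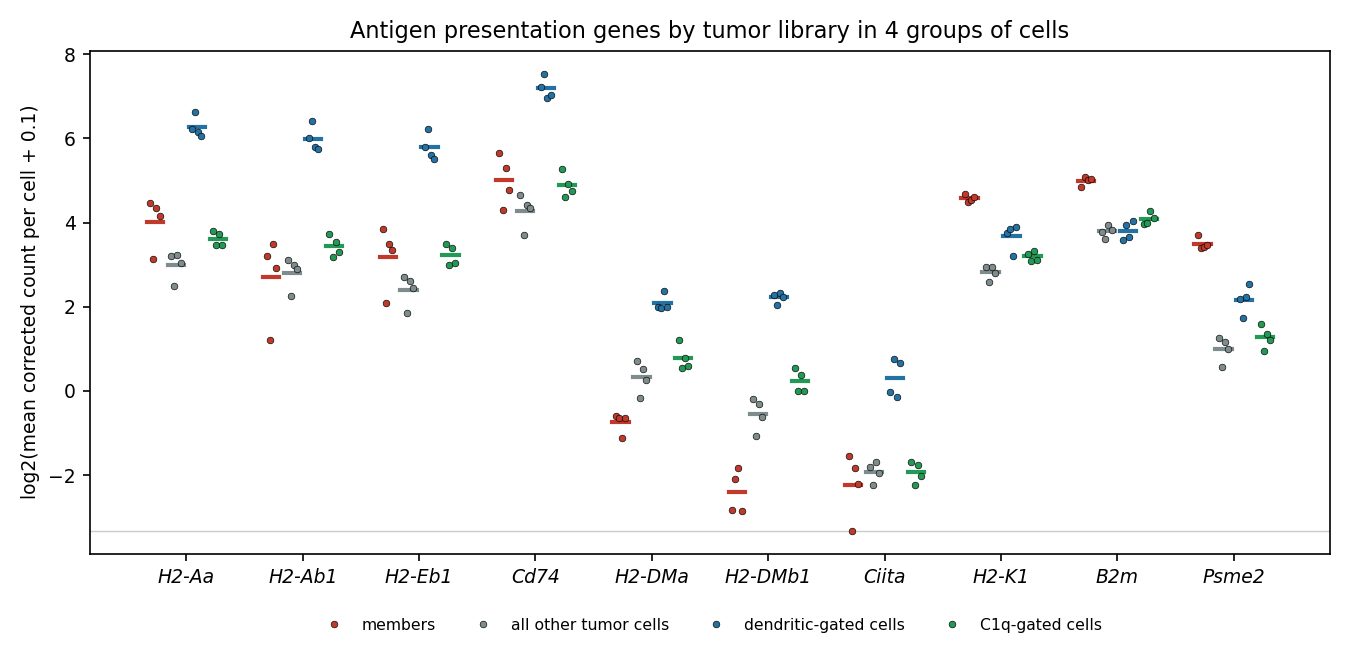
Antigen presentation genes by library, on log2(mean corrected count per cell + 0.1), with 1 point per tumor library and a line at the mean of 4. Class II genes stand at the left and the class I genes H2-K1, B2m and Psme2 at the right. The dendritic-gated cells lie highest for every class II gene plotted, and the members lie highest for the 3 class I genes.

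The cDC1 list had 10 of 12 genes lower and none higher (median −2.25), with 5 left without library 4 and 5 without library 5. Naaa, a lysosomal amidase of cDC1, averaged 5.22, 6.60, 5.48 and 5.74 counts in the dendritic-gated cells and was found in 1 of 95 members (−5.73 ± 0.30, limma adjusted p = 0.000204). Other genes lower by large amounts were Plbd1 (−4.37), Ckb, a creatine kinase (−4.13), Gpr171 (−4.10), Rab7b, a lysosomal GTPase (−3.89, or −4.53 without library 3), Plet1 (−3.88, from −4.64 without library 3 to −3.29 without library 2), Mpeg1, a pore-forming protein of phagocytes (−3.79), and Clec10a, a lectin of cDC2 (−3.72). Clec10a is tied to the gate too, which also took in cells by the cDC2 gene Cd209a (15 of 54 cells). Wdfy4 (−3.65), which cDC1 need for cross-presentation, Ppt1 (−3.64), Cadm1 (−2.10) and Cd24a (−1.73) were lower as well. Sept3 was listed at 0 in all 95 members and averaged 1.60 to 3.89 counts in the gate.

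The remaining lists showed few calls. Of 13 cDC2 genes, 3 were lower and 1, Cd1d1, higher, and of 16 transcription factors, 3 were higher and 1 lower. The median difference was −1.73 for 8 plasmacytoid genes, 0.34 for 19 interferon response genes and 1.19 for 5 neutrophil markers. Of 16 immediate-early genes, 1 was lower and none higher (median −0.03), and none of 4 genes of the B-MF list passed (median −0.08). S100a8 averaged 0.333, 0.20, 2.43 and 80.1 counts in the dendritic-gated cells, so the neutrophil level of that group was set by library 5, and the differences of S100a8 (1.87) and S100a9 (1.19) turned to −1.91 and −2.07 without the members that carried another cell type's genes. Plac8 (−2.87, or −2.26 without library 3) was lower in the members.

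Against C1q-gated cells, the members again had higher maturation, costimulation and class I genes and lower macrophage, uptake and sensing genes. These lists were chosen with earlier results of these data known. The lower macrophage genes are tied to the choice of this group, since the gate took in cells by macrophage genes. The C1q-gated cells held neutrophil RNA too, with a neutrophil sum of 232 to 518 counts per cell. The gate held 1498 cells, with 680, 171, 284 and 363 in libraries 2 to 5. Of 6561 genes, 3223 passed (49.1%), with 1715 higher (26.1%) and 1508 lower (23%), around a median of 0.08. The balance of both directions was not firm, with 1586 higher and 1813 lower without a filter on low values, and 1558 and 1596 with each cell scaled to the same total. The largest positive differences were in Ccl5 (8.32), Serpinb6b (7.02), Serpinb9 (6.34), Cd200 (5.52), Cacnb3 (5.52), Stat4 (5.16), Ramp3, a receptor partner protein (5.01), Net1, a guanine nucleotide exchange factor (4.96), Ly75 (4.93) and Socs2 (4.82). Ramp3 averaged 8.96, 2.77, 6.32 and 7.23 counts in members against 0.0234 to 0.154.

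Maturation and migration genes were higher in 15 of 16 cases (median 3.1), costimulation genes in 12 of 13 (2.18), and MHC class I genes in 17 of 22 with 2 lower (1.03). Of 12 class II genes, 1, H2-Oa, was higher (1.57) and 5 lower (median −0.51). Cd74, H2-Eb1 and H2-Ab1 differed by 0.13, −0.04 and −0.73 and did not pass, and H2-Eb1 turned to 0.25 without library 3. H2-DMb1 was lower (−2.63), as was H2-DMa (−1.53). For Cd74 the 4 libraries of the members (19.5 to 50.7) overlapped those of the C1q-gated cells (24.4 to 38.5), whereas for H2-DMb1 they did not.

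The largest negative differences were in Apoe, an apolipoprotein of macrophages (−6.00), Ms4a7 (−4.99), Lyz2 (−4.97), Pf4 (−4.88), G0s2 (−4.69), S100a9 (−4.62), Ccl8 (−4.59), Stfa2 (−4.55), Ccl4 (−4.55) and BC100530 (−4.45). Without library 2, G0s2 and S100a9 differed by −4.11 and −3.74. Apoe averaged 0.40, 0.409, 0.136 and 0.154 counts in members against 17.2 to 29.2 (limma adjusted p = 4.93e-08). All 9 macrophage markers tested (median −3.91), 12 of 14 uptake receptors (−3.86) and 11 of 14 pattern receptors (−2.04) were lower. Genes near 0 in members, such as Csf1r (0.0414 against 1.51) and Fcgr1 (0.0114 against 1.58), passed the filter on low values only through the C1q-gated cells. Their direction was nearly fixed beforehand. Of 16 chemokines, 12 were lower, Cxcl9 among them (−2.13), and 3 higher. Proliferation genes were lower in 6 of 9 (−1.47), including Stmn1 (−2.94) and Mki67 (−1.47).

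Among themselves, the members varied in cytokines, chemokines and class II genes. The following values are descriptions over cells, which share a library and are not replicates. Ccr7 had a median of 31 counts over the 95 members and ran from 2 to 87, and Tbc1d4 had a median of 30 and ran from 3 to 58. Ccl5 had a median of 57 and ran from 0 to 487, Cd74 a median of 17 from 0 to 257, and Ccl22 a median of 8 from 0 to 56.

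**Figure D4:**
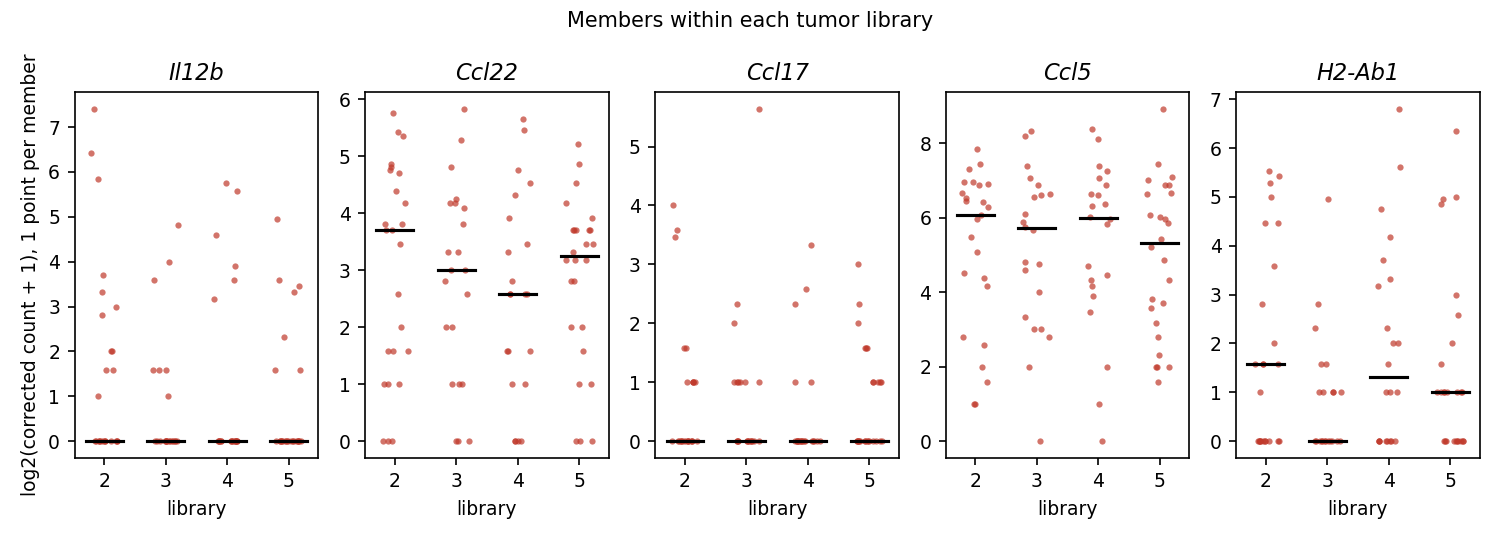
Corrected counts of Il12b, Ccl22, Ccl17, Ccl5 and H2-Ab1 in single members, as log2(corrected count + 1), with 1 point per member, libraries 2 to 5 on the horizontal axis and a black line at the median. The median of Il12b and of Ccl17 is 0 in every library, since 32 and 35 of the 95 members carried them.

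Class II genes separated a small share of the members. H2-Ab1 was found in 54 of 95 members and reached 10 counts in 17, which were 7, 1, 5 and 4 cells of libraries 2 to 5. These cells averaged less Ccl5, with 33.9, 22.2 and 13.5 counts in libraries 2, 4 and 5 against 85.0, 101 and 79.1 in the remaining members. Ccl22 followed the same order with 4.29, 1.80 and 3.5 against 18.1, 12.8 and 10.8, and Fscn1 with 13, 9.60 and 9 against 23.4, 14.5 and 21.8.

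In the same 17 cells other genes ran higher. Timd4 averaged 7.14, 1.20 and 4.25 counts in libraries 2, 4 and 5 against 0.611, 0.294 and 0.545. Ciita averaged 0.571, 0.80 and 0.75 against 0.111, 0 and 0. The neutrophil gene S100a9 was uneven, at 0.857, 75 and 0.5 against 0.611, 15.2 and 11.7, and the part of neutrophil RNA in this split was not tested. The median total of the 17 cells, 8566 corrected counts, was close to the 8647 of the others, and library 3, with a single such cell, is not part of these comparisons.

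Across members (n = 95), Cd74 and Ccl5 ran in opposite order, with a Spearman rank correlation of −0.53. For this and the following values, each library's mean of the log counts was subtracted and all 95 members were ranked together. Ranked within single libraries, the values of this pair ran from −0.63 to −0.39. H2-Ab1 and Cd74 ran together (0.71). Ccl22 ran with Ccl17 (0.45) and with Fscn1 (0.42), and against Nr4a3 (−0.45). Ccr7 ran with Nr4a3 (0.57) and Rel (0.53), whereas both genes of the rule, Ccr7 and Fscn1, were nearly unrelated (−0.13, from −0.30 to 0.22). Members were chosen by their counts of both genes, so the last value holds within the rule only. All cells share the same kind of depth correction, and no p is given for these values.

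**Figure D5:**
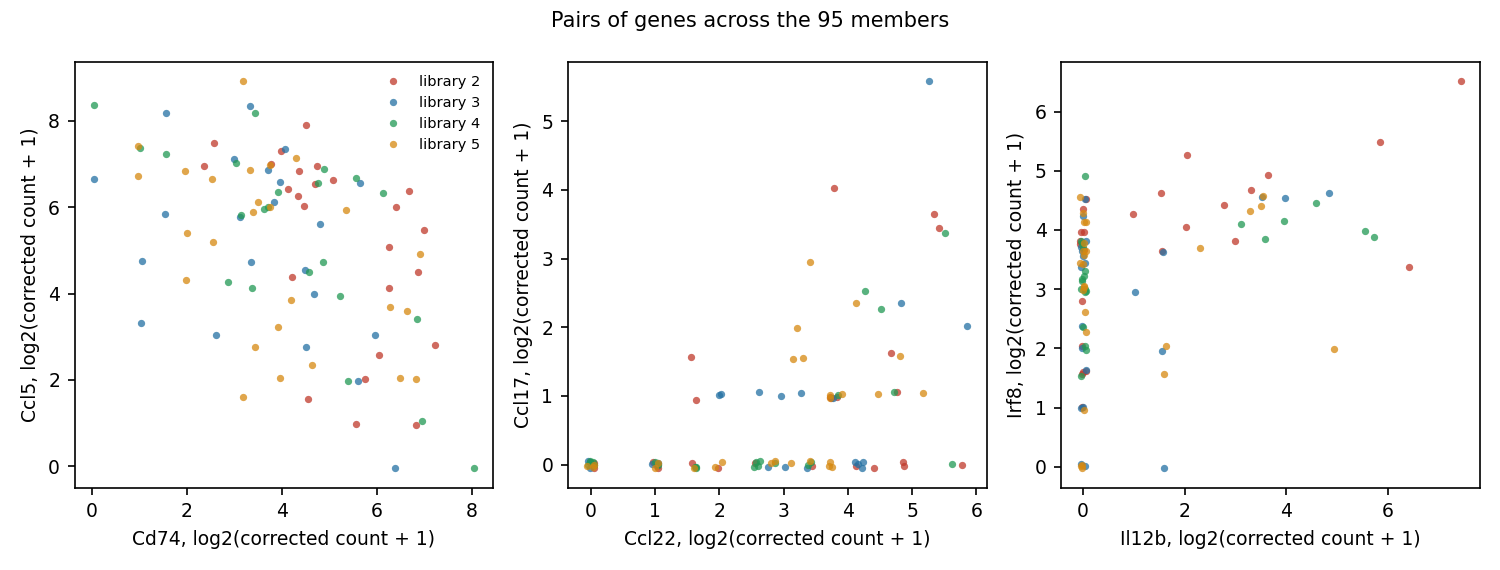
Pairs of genes across the 95 members, each axis as log2(corrected count + 1), 1 point per member, coloured by library and slightly jittered. Cd74 and Ccl5 run in opposite order (rank correlation −0.53), Ccl22 and Ccl17 together (0.45), and Il12b and Irf8 together (0.43). The last value ran from 0.20 in library 5 to 0.65 in library 4.

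A second split was drawn at any count of Il12b, which 12, 7, 6 and 7 members of libraries 2 to 5 carried. The 32 members with Il12b averaged 28.1, 12.6, 16.0 and 11.9 counts of Irf8 in libraries 2 to 5, against 9.69, 7.80, 8.75 and 9 in the 63 without it. Ncoa7 averaged 7.17, 5.71, 11 and 7.86 against 2.85, 2.40, 2 and 2.63, so every library moved the same way. Cd40 was likewise higher in all 4 libraries, with 4.42, 4.86, 4.33 and 2.43 against 1.54, 2.80, 1.44 and 2.16. Tnip3 was higher with Il12b in libraries 2, 3 and 4 but lower in library 5, at 1.71 against 2.16.

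The mean of H2-Ab1 was lower in the cells with Il12b in all 4 libraries, with 5.92, 1.14, 6.67 and 6.14 counts against 12, 2.73, 12.9 and 8, while the ranks of both genes were unrelated (rank correlation 0.03). Batf3 and Il15ra were higher in 2 libraries and lower in 2. Ccl22 was higher in 3 of 4. The cells with Il12b had a median of 8555 corrected counts and those without 8680.

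In the cultured macrophages, 1 cell met the same rule. Ccr7 was listed at 0 in every cell of both B-MF libraries (5237 and 5326 cells) and of Mo-MF replicate 1 (4846 cells), and Fscn1 was at 0 in every cell of the latter too. No cell of these 3 libraries could therefore meet the rule, and no limit on the share is drawn from them. In Mo-MF replicate 2, 1 of 5389 cells met it. The single Mo-MF cell had 7 counts of Ccr7, 2 of Fscn1, 8 of Tbc1d4, 225 of Ccl5, 139 of Cd74 and 15 of Lyz2. Other cells of its library averaged 0.0239 counts of Ccl5 and 350 of Lyz2. The cultures were normalised apart from the tumor cells, so the levels are given side by side only.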

How the data were processed

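Single-cell RNA-seq libraries of sorted tumor cells and of cultured B-MF and Mo-MF were analysed. Per the methods of the study and the labels, the authors made 10x Chromium 3' libraries, counted reads with Cell Ranger against mm10, kept cells with at least 1000 genes and genes in more than 3 cells, and normalised with SCTransform in Seurat. The deposited values are the natural log of 1 plus a corrected count, as the authors made them. Exponentiating gave whole numbers to within 0.002 in the tumor table of 15333 genes and 10885 cells. The correction brings cells to a shared total, so depth is hidden and a count model was not used.

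Means per library and group were compared with limma 3.58.1 in R 4.3.3 on log2(mean + 0.1), with library as a block and Benjamini-Hochberg adjustment at 0.05. Both groups of a library are cells of that library, which is where the pairing comes from. Genes needed an average of the 2 group means of at least 0.1, and a library needed 5 cells in each group. A gene near 0 in members therefore entered only through the other group, and could hardly be called higher in members. Likewise, a gene near 0 in the other group entered only through the members, and could hardly be called lower in them. The fit was also run on simulated data with the real numbers of cells, in which both groups of a library shared its library effect. Real groups may differ more than that, and the outcome is not reported here, so no conclusion on the calls is drawn from it. Intervals are exact binomial intervals at 95% and cover counting error only. Tables were handled with pandas 2.3.3 and numpy 2.4.6 under Python 3.11.15, intervals came from scipy 1.17.1 and plots from matplotlib 3.10.9.

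The members and the 27 gene lists were chosen with earlier results of these data known. Named were the 6 markers, 2 to 4 or more examples of a list, and in each comparison the 10 largest positive and 10 largest negative called differences with 1 direction in all libraries, without genes of the gates and without ribosomal, mitochondrial, immunoglobulin, Gm and Rik genes. Further genes in the text were chosen after their values were seen. No doublet caller was run. The correlations and the splits among members were chosen after the values were seen. ATAC-seq peak lists of the series were not used here, since they hold no tumor cells. Some genes counted in the lists are not reported here by name.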

Additional observations from a re-analysis of the deposited data

Results flagged for a closer look

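Over the mean levels of the named genes in members and the share of members, 151 sets of 4 library values were examined for a library apart from the other 3, with Dixon's gap against its 95% critical value. Chance gives about 1 set in 20, and 13 were picked out, 3 through library 2, 4 through library 3, 4 through library 4 and 2 through library 5.

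At measurable levels, H2-M2 averaged 8.59 corrected counts per member in library 3 and 1.23 to 2.35 in the others. Irf8 averaged 18.5 in library 2 and 9.32 to 10.7 elsewhere. Pdcd1lg2 averaged 1.6 in library 2 and 0.591 to 0.731 elsewhere. Cytip was low in library 3 at 7.95, with 11.8 to 12.4 in the others, and Zfp366 was low there at 0.318, with 0.5 to 0.52. H2-DMa was low in library 4 at 0.364, with 0.538 to 0.56. Ccl4 was high in library 4 at 0.682, with 0.08 to 0.115.

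Near 0, a few counts set the gap. Ccl2 was at 0.04 in library 2, March1 and Naaa at 0.0455 in library 4, Plet1 at 0.115 in library 5 and Rab7b at 0.227 in library 3, each listed at 0 in the other libraries. Ccl8 was at 0 in library 5 and at 0.04 to 0.0455 in the others.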

How the results depend on the processing

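The libraries number 4, corrected counts hide the sequencing depth, and the dendritic gate holds as few as 5 cells in a library, so that group's means are imprecise. Of the 76 named genes called against dendritic-gated cells, 58, 64, 21 and 32 stayed called without library 2, 3, 4 and 5, and the counts of genes ranged from 24 to 293 higher and from 46 to 404 lower. In those 4 fits, library 2 left 146 higher and 179 lower. A pseudocount of 0.05 gave 184 higher and 247 lower, and one of 0.5 gave 482 and 513, a dependence on low values, and with 0.05 54 of the 76 named genes stayed called. An average of at least 0.5 tested fewer genes and gave 860 higher and 679 lower against all other tumor cells and 754 and 666 against C1q-gated cells. With each library left out in turn, the latter comparisons ranged from 1481 to 1883 higher and 1179 to 1325 lower, and from 1291 to 1597 and 1237 to 1413. Without a filter the share of higher calls against all other cells moved from 58.2% to 46.6% (1816 higher, 2083 lower). Without the block by library, the counts were 2083 and 1450, 380 and 450, and 1745 and 1517 in the order of the comparisons, so the pairing moved none by over 1.5 times. With dendritic-gated cells restricted to Ccr7 at 0, an alternative chosen after seeing the data that could use libraries 2, 4 and 5 only, 385 were higher and 319 lower, and 68 of the 76 named genes stayed called. No named gene that was called changed direction under any of these fits. Among named genes that were not called, H2-Ab1 against all other cells turned to 0.26 with a gate of 1, to 0.042 without the members carrying another type's genes, and ranged from −0.31 to 0.21 with a library left out, and Isg15 ranged from −0.064 without library 4 (−0.03 without library 2) to 0.37. Against dendritic-gated cells, S100a9 and S100a8 turned to −2.07 and −1.91 without those members, and Batf3 ranged from −0.00363 to 0.39 with a library left out. Against C1q-gated cells, H2-Eb1 turned to 0.22 and 0.029 under the same pair of changes and ranged from −0.17 to 0.25. Thinned to 4000 corrected counts per cell, the share of members with a count fell to 73.7% for Ccl22, 65.3% for Il4i1, 72.6% for Cd274, 60% for Cd40, 92.6% for Cd83, 53.7% for Flt3, 28.4% for Zbtb46, 45.3% for H2-Ab1 and 35.8% for S100a8, by construction. A gate of 1 or 3 gave 0.928% and 0.854% of cells as members, and leaving out a library gave 0.852 to 0.909%. The causes of the other changes were not tested.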
